A study of Homo sapiens with 6 samples.

Results

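The AP-1 and immediate early factors are 10 genes, FOS, FOSB, FOSL1, FOSL2, JUN, JUNB, JUND, ATF3, EGR1 and IER2, read here by their RNA in cultures of the breast cancer line SUM-LM1 given activin B. They were chosen by name, with earlier results of these data known. All probe sets that the platform annotation gives to 1 of these symbols alone were taken, which returned 10 of 19775 genes and 24 of 54613 probe sets. The study sought the early gene response of the cancer cells to activin B, a ligand of the TGF-beta family and homodimer of the protein encoded by INHBB. SUM-LM1 is a metastatic derivative of the human line SUM159, and trypsinized cells of this line were seeded in ultra-low attachment plates in a HuMEC medium with BSA at 12500 cells per ml. One group of 3 biological replicates received recombinant human activin B at 50 ng/ml for 6 h, and the other group of 3 received the carrier alone, 0.1% BSA in PBS, for the same time. Total RNA was hybridized to Affymetrix U133 Plus 2.0 arrays, and each value below is a log2 signal, on which a difference of 1 is a doubling.

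AP-1 is a family of transcription factors that bind DNA as dimers. FOS proteins pair with JUN proteins through a leucine zipper, JUN proteins can also pair with each other, and ATF3 joins them through the same kind of zipper. The FOS and JUN genes, EGR1 and IER2 are known as immediate early genes because growth factors, stress and handling switch them on within minutes, without new protein synthesis, and many of them fall silent again within hours. In cells that answer to TGF-beta, SMAD proteins and AP-1 share target genes, and JUNB is known as an early SMAD target. Probe sets of this array are designed near the 3′ end of transcripts, and several may read 1 gene.

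The promoters of the members differ in the motifs they hold. Windows from 250 bases before to 50 bases after the start site were matched in RefSeq (GRCh38.p14) for 9 of the 10 genes, and FOSL1 was not among them. The windows of JUNB, which had the highest change below, and of FOS and EGR1, whose representing sets had negative changes, are printed in full. JUNB lies on the plus strand at chr19:12791236-12791535, FOS on the plus strand at chr14:75278578-75278877 and EGR1 on the plus strand at chr5:138465229-138465528. Capitals mark every match to the 8 motifs searched on both strands.
JUNB: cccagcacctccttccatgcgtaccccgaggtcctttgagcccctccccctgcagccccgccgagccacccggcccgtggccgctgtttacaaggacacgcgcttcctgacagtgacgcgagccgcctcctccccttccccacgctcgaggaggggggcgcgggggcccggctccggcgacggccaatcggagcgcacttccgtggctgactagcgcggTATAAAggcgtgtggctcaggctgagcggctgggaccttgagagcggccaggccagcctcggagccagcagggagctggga
FOS: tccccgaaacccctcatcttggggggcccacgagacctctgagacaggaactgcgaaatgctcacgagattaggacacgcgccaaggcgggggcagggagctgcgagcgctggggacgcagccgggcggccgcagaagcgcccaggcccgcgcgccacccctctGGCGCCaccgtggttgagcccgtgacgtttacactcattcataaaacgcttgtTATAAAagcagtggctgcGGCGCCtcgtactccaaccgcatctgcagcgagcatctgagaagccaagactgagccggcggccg
EGR1: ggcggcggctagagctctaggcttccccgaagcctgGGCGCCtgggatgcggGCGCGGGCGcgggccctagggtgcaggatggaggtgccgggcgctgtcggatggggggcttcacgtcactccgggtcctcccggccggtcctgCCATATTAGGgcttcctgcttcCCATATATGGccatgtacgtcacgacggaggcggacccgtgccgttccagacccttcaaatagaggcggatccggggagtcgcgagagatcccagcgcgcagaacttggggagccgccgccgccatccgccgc

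Of these motifs, the CArG box, the site of serum response factor, was found in the windows of EGR1 alone, at -83 and -105 from the start. It was found in 1.29% of 35116 promoters. FOSL1 had no window, and sequence farther than 250 bases before the start was not searched, so a member without a match may hold the motif elsewhere. EGR1 also held a match to its own kind of site, GCGNGGGCG, which 9.43% of promoters hold. The TATA box (TATAAA) lay at -31 from the start of JUNB, at -33 from that of FOS and at -30 from that of FOSB. The same letters lay at -230 in ATF3, in its window at chr1:212614768-212615067 and not in that at chr1:212565157-212565456. Of all promoters, 11.5% held a match. GGCGCC, an element bound by SMAD1/5 complexes, was matched in FOS and EGR1 and in 19.2% of all promoters. The AP-1 site TGAGTCA was matched in FOSL2 (4.95% of all), the cyclic AMP response element TGACGTCA in JUND (1.85% of all) and the ETS site CCGGAAG in IER2 (10.3% of all). The CAGA box AGNCAGACA, a SMAD2/3 element, was matched in no member and in 1.51% of all promoters. No 2 matches overlapped in a member. A match describes letters in this window and is no measured binding site.

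Before the members, the arrays were compared as a whole. Activin B replicate 3 stood apart on the first principal component, which held 29.5% of the variance, at 21.7 against -10.6 to 5.70 for the others, and the log2 changes of the representing sets are also given without it. The difference between the 3′ and 5′ control sets was -0.01 ± 0.03 in activin B and -0.04 ± 0.04 in vehicle for GAPDH, and 0.09 ± 0.01 and 0.11 ± 0.01 for ACTB (SD, n = 3 each, activin B first). Of 12 breast line markers, 9 lay above the median of all probe sets. VIM averaged 13.90 in activin B and 13.89 in vehicle, and CD44 12.49 and 12.50. The keratin genes KRT18 (11.99 and 12.09) and KRT14 (11.66 and 11.58) were also bright, and KRT8 read 9.0 in both groups. EPCAM lay at 6.36 in activin B and 6.20 in vehicle, and CDH1 at 6.31 and 6.27. Both lay under the array medians of 6.69 to 6.70, and so did the receptor gene PGR. The receptor gene ERBB2, at 8.07 in activin B and 7.96 in vehicle, lay above these medians. ESR1, at 6.84 and 6.81, lay only just above them, at a dim level near that of the leukocyte marker CD3E (6.95 and 6.75). ID1, ID2 and ID3 served as genes known to answer the ligand, and they rose by log2 changes of 2.26, 1.47 and 2.85 (limma adjusted p = 7.74e-08, 6.52e-07 and 6.81e-08).

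No member passed the test at 6 h. That was the only time read, so a change that came and went earlier would not be seen. Of the 24 probe sets, 0 reached an adjusted p under 0.05 by limma, against 0.121% of all probe sets (66 of 54613; 0.0732% rising and 0.0476% falling), and 0 of 10 genes did by the probe set with the highest mean signal, against 0.192% of all genes. At an unadjusted p under 0.05 there were 7 of 24, 6 higher in activin B and 1 lower, against 5.28% of all probe sets, and 4 of 10 genes, against 5.89% of all genes. The log2 change was above 0 in 16 of 24 sets, against 49.3% of all sets. All 3 activin B arrays lay above all 3 vehicle arrays in 6 of 24 (4.91% of all probe sets did), and below them in 0 of 24 (4.89% of all did). Either way, the groups stood apart in 9.79% of all probe sets, and in 4 of 10 member genes against 10.3% of all genes. The median log2 change was 0.03 over the 24 sets, and it was near 0 over all sets (-0.0012). Several sets read the same gene, so these counts are a description of the list and not of independent genes. In bulk RNA, fewer cells that express a gene and less of its RNA per cell cannot be told apart.

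The intervals were narrow. All 24 95% intervals of the log2 change lay within a 1.5-fold change in either direction, from the low end of FOS at -0.35 to the high end of JUNB at 0.46. The standard errors ran from 0.06 to 0.09 with a median of 0.07, and the intervals cover 1 probe set at a time. They describe the array signal, and RMA compresses differences of dim sets such as FOS and FOSB, so a larger change in RNA is not excluded there.

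**Figure D1:**
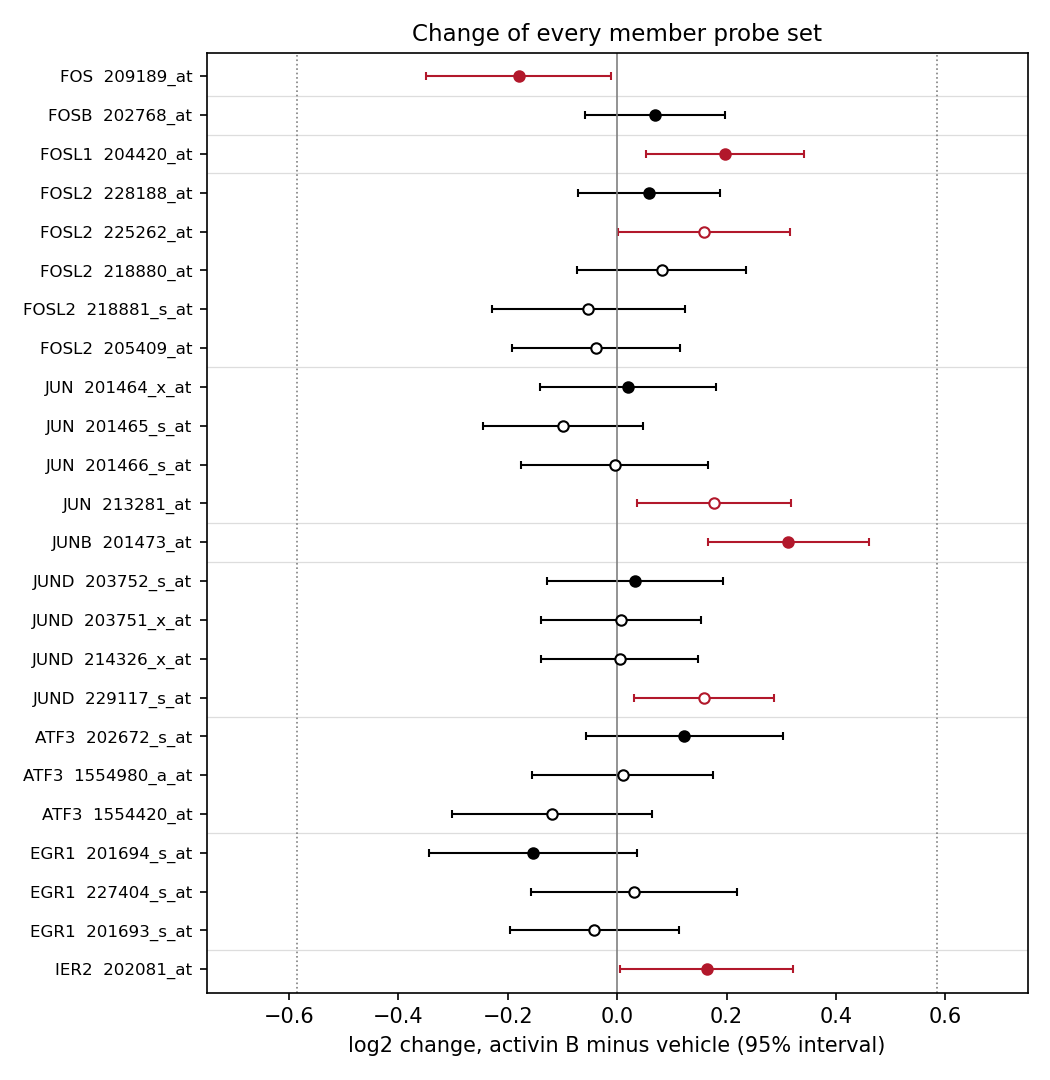
Log2 change of each of the 24 member probe sets, activin B minus vehicle, with the 95% interval of the limma fit; filled points are the sets that represent a gene, red marks an unadjusted p under 0.05, and dotted lines mark a 1.5-fold change. JUNB lies highest at 0.31, FOS lowest at -0.18, and no interval reaches a dotted line.

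Among the JUN proteins, JUNB gave the highest change of all members. It is a JUN family protein that can oppose JUN at some promoters. Its log2 signal was 8.84, 8.81 and 9.01 in activin B, against 8.55, 8.63 and 8.55 in vehicle. The 3 activin B arrays thus lay above the 3 vehicle arrays, with a mean of 8.89 ± 0.11 in activin B and 8.58 ± 0.05 in vehicle (SD, n = 3). The log2 change was 0.31 ± 0.07 (SE; 95% interval 0.17 to 0.46), a fold of 1.24, with an unadjusted p of 0.000408 (rank 129 of all probe sets) and an adjusted p of 0.173 by limma, so it did not pass. Without any 1 array the change lay between 0.25 and 0.35; the lowest, 0.25, came without activin B replicate 3. JUNB is read by 1 probe set, so the array holds no second reading of it.

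JUN, the founding partner of FOS, is read by 4 probe sets that did not move together. The brightest, 201464_x_at, of the kind that may cross-hybridize, read 9.91, 9.90 and 9.79 in activin B and 9.76, 9.77 and 10.01 in vehicle, a log2 change of 0.02 ± 0.08 (SE; adjusted p = 0.999). The sets 201465_s_at and 201466_s_at had log2 changes of -0.10 and 0.00, with overlapping groups. In 213281_at the activin B arrays read 7.91, 7.93 and 8.09, above the vehicle arrays at 7.78, 7.82 and 7.80. Its log2 change was 0.18 ± 0.07 (SE; unadjusted p = 0.0177, adjusted p = 0.858), 0.12 without activin B replicate 3. The 4 sets thus span log2 changes from -0.10 to 0.18 for 1 gene.

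JUND, the JUN protein that resting cells also hold, was bright and close to level. Its representing set read 10.80, 10.83 and 10.77 in activin B and 10.63, 10.93 and 10.74 in vehicle, a log2 change of 0.03 ± 0.08 (SE; adjusted p = 0.999). The next 2 sets by brightness had log2 changes of 0.01 and 0.00. The dimmest, 229117_s_at, read 6.64, 6.62 and 6.59 in activin B, against 6.46, 6.45 and 6.46 in vehicle, without overlap. Its log2 change was 0.16 ± 0.06 (SE; adjusted p = 0.859), and it was the 1 member set whose mean lay under the median of all probe sets.

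**Figure D2:**
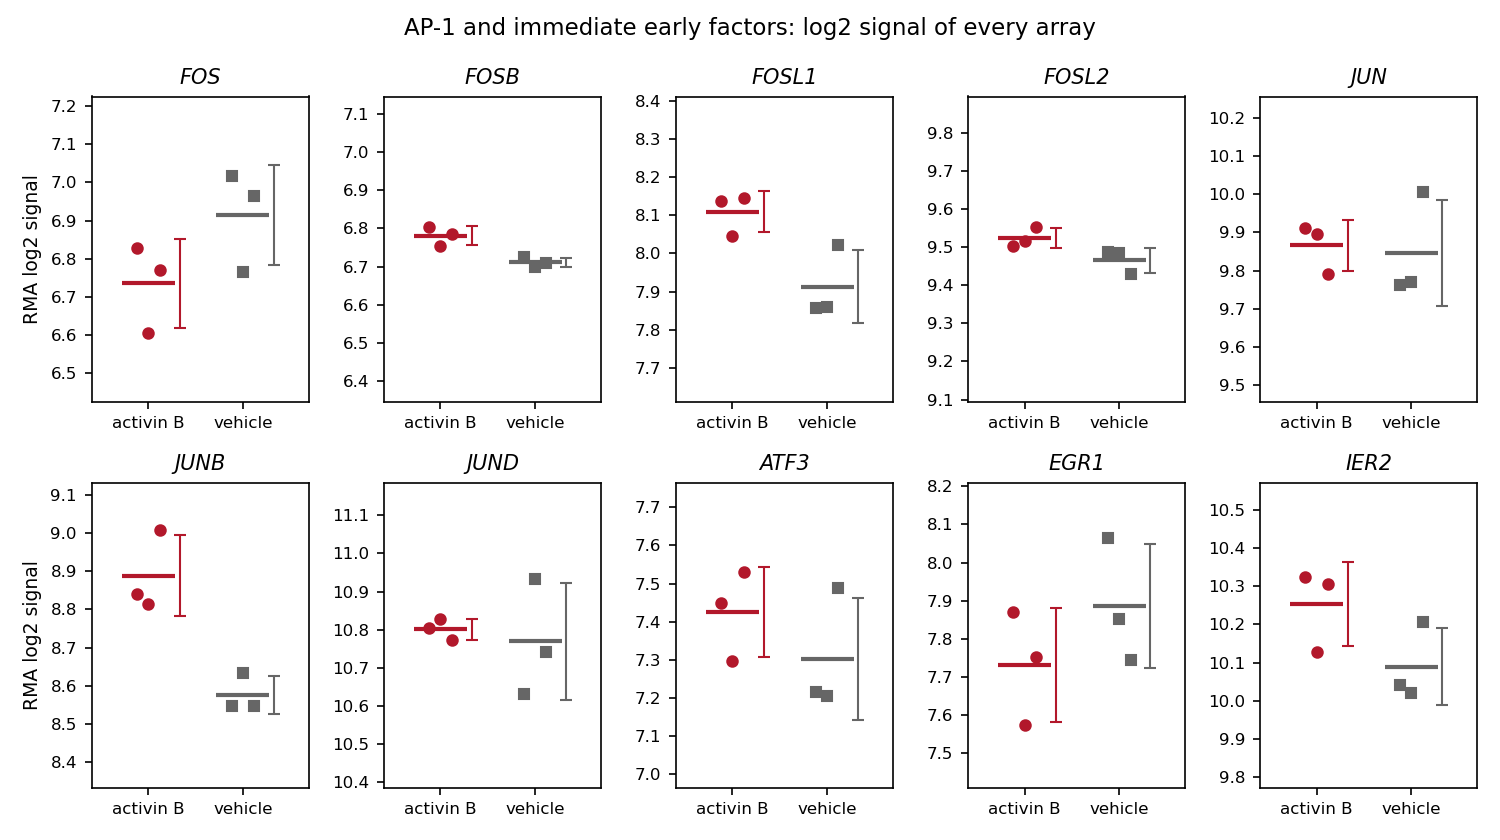
RMA log2 signal of the representing probe set of each member, activin B in red circles and vehicle in grey squares, with the mean as a horizontal line and the SD as a bar; each panel spans 0.8 on the log2 scale, centered on the gene. JUNB, FOSL1, FOSB and FOSL2 show the activin B arrays above the vehicle arrays, and FOS and EGR1 have lower means in activin B.

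The FOS proteins, which need a partner to bind DNA, did not pass in either direction. FOS read 6.83, 6.61 and 6.77 in activin B and 7.02, 6.77 and 6.96 in vehicle. The groups overlapped, with replicate 2 the lowest in each and activin B lower at each replicate number. The log2 change of -0.18 ± 0.08 (SE, limma unadjusted p = 0.0385, adjusted p = 0.934) was the lowest of all members. FOS was dim, with a mean of 6.74 in activin B and 6.92 in vehicle against array medians near 6.70, a level at which RMA compresses differences. It ran from -0.25 to -0.12 when 1 array was left out, the smallest without activin B replicate 2.

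FOSL1, a FOS protein often abundant in invasive breast lines, read 8.14, 8.05 and 8.15 in activin B and 7.86, 7.86 and 8.02 in vehicle. The groups did not overlap, and vehicle replicate 3 came closest to the activin B arrays. The log2 change was 0.20 ± 0.07 (SE; unadjusted p = 0.0112, adjusted p = 0.777), and between 0.17 and 0.25 without any 1 array. FOSB, a FOS protein best known from the brain, read 6.80, 6.75 and 6.79 in activin B, against 6.72, 6.70 and 6.71 in vehicle. These groups did not overlap either, at a dim level and with a log2 change of 0.07 ± 0.06 (SE; adjusted p = 0.995).

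FOSL2 had 5 probe sets, 3 with positive and 2 with negative changes, from -0.05 to 0.16. Its representing set read 9.50, 9.51 and 9.55 in activin B and 9.49, 9.48 and 9.43 in vehicle, a log2 change of 0.06 ± 0.06 (SE; adjusted p = 0.995). The groups did not overlap, yet differed by less than any other representing sets that stood apart. The set with the highest change, 225262_at, overlapped between the groups (log2 change 0.16 ± 0.07, SE; adjusted p = 0.946).

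The remaining members lie outside the FOS and JUN families. IER2, a nuclear protein of the immediate early response, was bright and read 10.33, 10.13 and 10.31 in activin B and 10.04, 10.02 and 10.21 in vehicle. The groups overlapped, since activin B replicate 2 lay below vehicle replicate 3, and the log2 change was 0.16 ± 0.07 (SE; unadjusted p = 0.0441, adjusted p = 0.934). ATF3, a stress-inducible factor of the ATF family, read 7.45, 7.30 and 7.53 in activin B and 7.22, 7.21 and 7.49 in vehicle by its brightest set. Its difference was 0.12 ± 0.08 on the log2 scale (SE; adjusted p = 0.995), and the other 2 had 0.01 and -0.12, so the sets of ATF3 differed in sign. When 1 array was left out, the brightest set ran from 0.07 without activin B replicate 3 to 0.21 without vehicle replicate 3, and 1554420_at, the set at -0.12, from -0.20 without vehicle replicate 1 to -0.01 without vehicle replicate 2.

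EGR1, a zinc finger factor whose promoter carries the CArG boxes shown above, read 7.87, 7.57 and 7.75 in activin B and 8.06, 7.85 and 7.74 in vehicle. The groups overlapped and the log2 change was -0.15 ± 0.09 (SE; adjusted p = 0.985), the widest error of all members. It ran from -0.23 without vehicle replicate 3 to -0.07 without vehicle replicate 1, and was -0.08 without activin B replicate 2. Its other 2 sets had log2 changes of 0.03 and -0.04. The 95% interval of the first, -0.34 to 0.04, includes no change and a fall of 1.27-fold at its low end.

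Within the groups, 1 array was low across members. Activin B replicate 2 was the lowest of its group in 7 of 10 genes, and it lay 0.07 under the group mean on average; the other arrays were the lowest in 1 to 4 genes. Without activin B replicate 3, 0 of 24 sets passed and 4 had an unadjusted p under 0.05. Its omission left a log2 change of 0.25 for JUNB, 0.06 for JUN and 0.05 for JUND. For the FOS proteins the log2 change was then -0.20 for FOS, 0.07 for FOSB, 0.18 for FOSL1 and 0.04 for FOSL2, and for the remaining members 0.07 for ATF3, -0.16 for EGR1 and 0.14 for IER2. The change of ATF3 was thus over 1.5 times smaller without that array, and the set 225262_at of FOSL2 was at 0.11 without it. The sign of the log2 change held in all 6 omissions of 1 array for 14 of 24 sets, among them JUNB, FOSL1, FOS, FOSB and IER2.

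**Figure D3:**
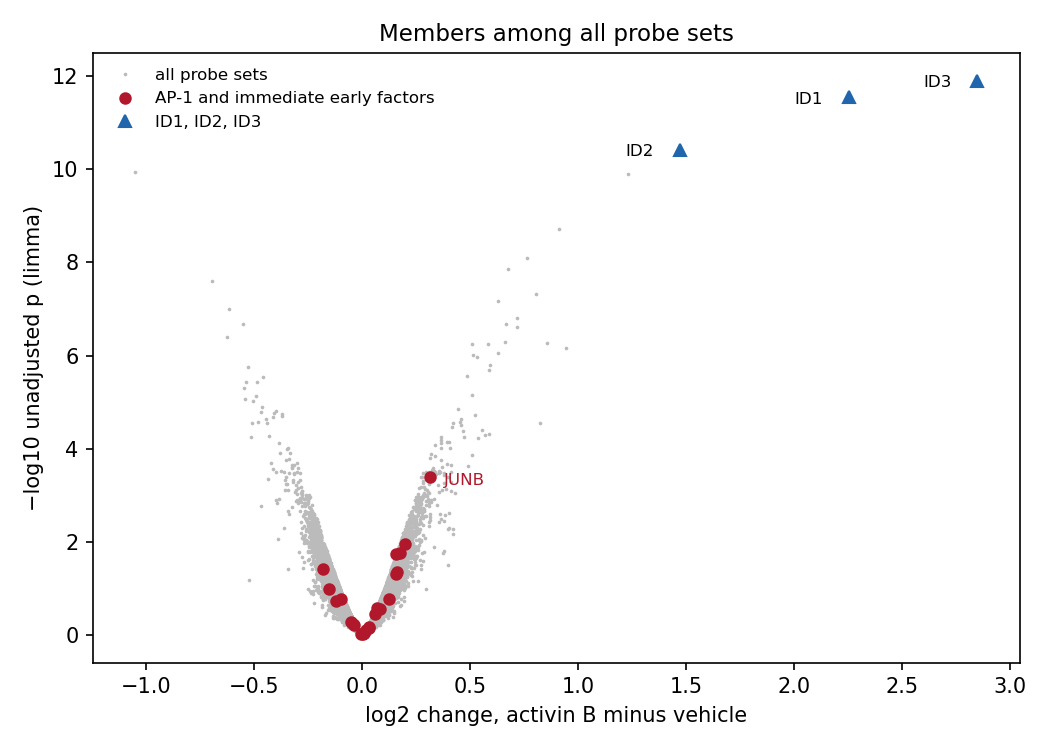
Log2 change, activin B minus vehicle, against the −log10 unadjusted p of limma for all 54613 probe sets in grey, the 24 member sets in red and ID1, ID2 and ID3 in blue triangles. The members lie between -0.18 and 0.31, with JUNB highest, and the ID genes lie at the upper right.

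No gene passed in the lists of AP-1 partners, regulators and targets or of stress and cell type genes. Of 22 measured bZIP factors that can pair with AP-1 proteins or bind like sites, 0 rose and 0 fell, with a median log2 change of -0.01. CREM, a cyclic AMP responsive factor, had a log2 change of 0.24 ± 0.08, NFE2 -0.20 ± 0.07 and NFE2L2, the regulator of antioxidant genes, -0.12 ± 0.08 (± SE, with limma adjusted p values of 0.708, 0.795 and 0.995). Of 31 other immediate early genes 0 passed, with a median log2 change of 0.01, and 5 of 31 were higher and 0 lower at an unadjusted p under 0.05, which 5.89% of all genes reached in either direction. SPRY2, a brake on receptor tyrosine kinases, had 0.27 ± 0.07, KLF10, a factor known to answer TGF-beta, 0.21 ± 0.07 and CCN2, a matricellular protein, 0.19 ± 0.07 (log2 change, SE; adjusted p = 0.331, 0.777 and 0.874). NR4A1 (0.24) and PTGS2 (0.21) were the other 2 of these 5.

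Upstream of the family, 20 measured kinases and serum response factors had a median log2 change of 0.00, with 0 at an unadjusted p under 0.05. MRTFA, a coactivator of serum response factor, and MAPK10, a JUN kinase, had log2 changes of -0.14 and 0.13, and TAB1, an activator of MAP3K7, had -0.06 (adjusted p = 0.977, 0.986 and 0.995). Downstream, 21 measured AP-1 target genes had a median of 0.00, with 0 passing. IL11, a cytokine, was at a log2 change of 0.30 ± 0.08, HMGA2, a chromatin protein, 0.23 ± 0.06 and PLAU, the urokinase, -0.24 ± 0.08 (SE; adjusted p = 0.375, 0.474 and 0.698). MMP1, a collagenase and classical AP-1 target, was at 13.61 in both groups with a log2 change of 0.00. Over all genes the median log2 change was also near 0 (-0.0017).

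Handling and stress can switch on the members, so stress genes were read beside them. Of 12 measured stress and heat shock genes 0 passed, also at an unadjusted p under 0.05, and the median log2 change was 0.00. GADD45A, a DNA damage gene, had -0.12, HMOX1, heme oxygenase, 0.21 and HSPA6, a heat shock protein, 0.08 (adjusted p = 0.959, 0.976 and 0.995). The mean signal of the list on replicates 1 to 3 was 10.32, 10.15 and 10.12 in activin B and 10.29, 10.17 and 10.11 in vehicle. It thus fell with the replicate number in both groups, which alone makes the ranges overlap. HMOX1 read 12.75, 12.41 and 12.29 in activin B and 12.52, 12.22 and 12.06 in vehicle. At each replicate number HMOX1 was higher and GADD45A lower in activin B, though pairing of the replicates is not known. A part of handling or stress in the members' values was not tested.

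Most markers of other cell types lay under the median of all probe sets, and PECAM1, at 7.65 in activin B and 7.84 in vehicle, and CD79A, at 7.39 in activin B and 6.98 in vehicle, lay highest above it. The mean of 8 measured leukocyte markers ran from 6.55 to 6.70 in activin B and from 6.53 to 6.54 in vehicle, and 6 of the 8 lay under the median of all probe sets. CD79A, a B cell receptor chain, was at a log2 change of 0.41 ± 0.08 (SE; adjusted p = 0.0698), CD3E 0.20 and PTPRC, the pan-leukocyte marker at 6.31 in activin B and 6.22 in vehicle, 0.09 (adjusted p = 0.799 and 0.995). The mean of 10 endothelial markers ran from 6.51 to 6.59 in activin B and from 6.59 to 6.67 in vehicle, with 8 of 10 under the median of all probe sets. PECAM1 had a log2 change of -0.19, EMCN -0.14 and KDR -0.15 (adjusted p = 0.874, 0.947 and 0.951). Among 12 breast line markers 0 passed, with KRT5 at -0.21, EPCAM at 0.16 and KRT18 at -0.10 (adjusted p = 0.801, 0.878 and 0.988). Their part in the members' values was not tested.

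**Figure D4:**
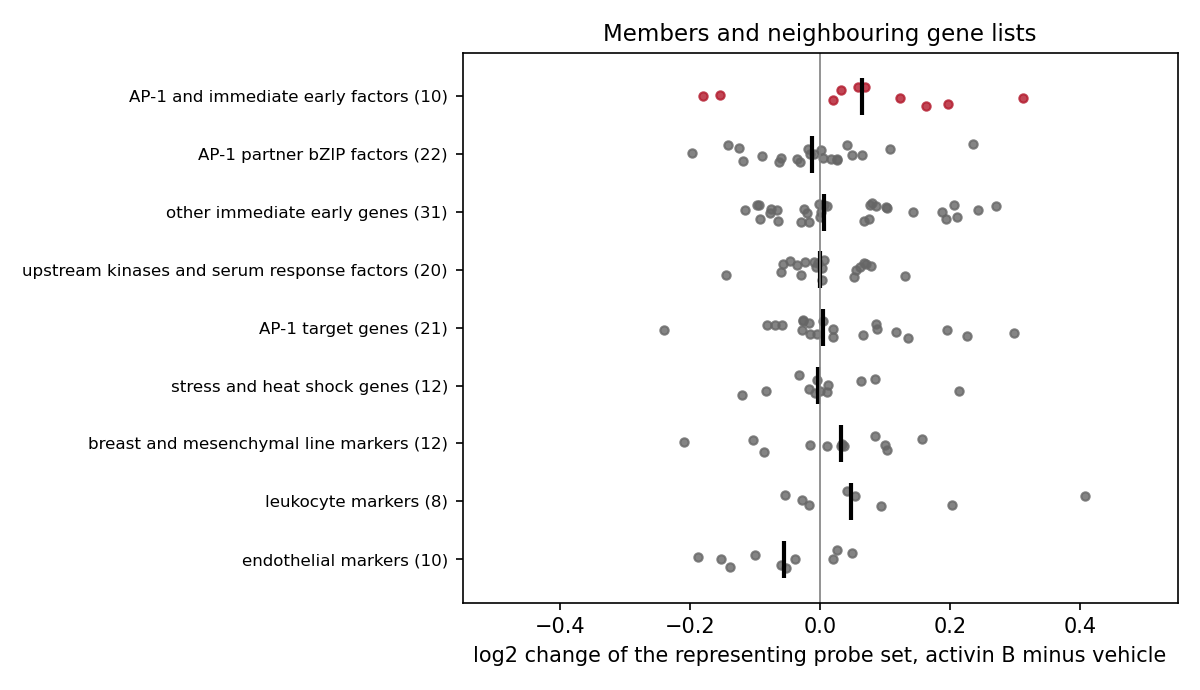
Log2 change, activin B minus vehicle, of the representing probe set of each measured gene among the members (red) and the lists named on the axis, with list sizes in parentheses and black bars for medians; the ID genes, which rose, are not drawn. The members' median is 0.06, each row drawn spans 0, and no point drawn passed the test.

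JUNB, the member with the smallest p, was compared with all other genes by its pattern over the 6 arrays. After subtraction of the vehicle mean, the smallest root mean square differences were those of PXDN (0.04), MMP28 (0.05), H3-3A (0.06), ARHGAP24 (0.06) and DHRS3 (0.06), on the log2 scale. Their log2 changes were 0.33, 0.34, 0.30, 0.27 and 0.27, and none passed (adjusted p = 0.158, 0.0643, 0.164, 0.439 and 0.250). These 5 were picked for their likeness to JUNB, so their changes are a description.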

How the data were processed

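SUM-LM1 cells were profiled on 3 arrays with activin B and 3 with vehicle; the sample titles give the groups and biological replicate numbers. The deposited log2 values came from RMA (robust multiarray averaging), which the authors ran in Chipster on the CEL files. RMA equalizes the arrays' distributions, which removes a change shared by most genes, and compresses differences near background. The scanner files, the scan dates and any batch were not analysed here.

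The 62 array controls were left out and 54613 probe sets tested. The platform annotation gave 1 symbol to 41091 sets, several to 1801 and none to 11721; gene identifiers of 41037 matched RefSeq (GRCh38.p14), which changed no symbol. Names came from sets with 1 symbol, and the set with the highest mean represented each of 19775 genes. The main test was the moderated comparison of limma 3.58.1 (R 4.3.3) (residual df 4, prior df 10.8), two-sided, with Benjamini-Hochberg adjustment over all probe sets; the threshold was an adjusted p under 0.05. With 3 arrays a group, precision is limited, and a p-value reads only how these samples vary. Members and lists were chosen with earlier results of these data known. Every probe set with the symbol of a member alone is accounted for. Of each list the up to 3 genes with the smallest p are named, and 5 genes like the leading member. CDH1, PGR, VIM, CD44, KRT8, KRT14, ESR1, ERBB2, MMP1, NR4A1 and PTGS2 were chosen after their values were seen. Of 156 list entries, 17 had no set with that symbol alone. The test was checked on simulated arrays. Alternatives were the replicate block, other normalizations and filters, other priors, array weights, each array left out, and other probe set rules. Figures were drawn with matplotlib 3.10.9.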

Additional observations from a re-analysis of the deposited data

How the results depend on the processing

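No member probe set or member gene that was fitted passed under any of the alternatives run. The limma adjusted p of JUNB lay between 0.125 and 0.587 in these. The signal filters fitted fewer member sets, and the other probe set rules counted genes only. With the replicate block, 97 probe sets passed over the whole table, against 66 without it, and the smallest member value was JUNB at an adjusted p of 0.126. The titles number the replicates but do not say whether same-numbered arrays were paired, so pairing is not known. Deviations of same-numbered arrays correlated at 0.162, 0.041 and 0.192, and each of the 6 arrays correlated best with its own number. Under the block, 8 member sets had an unadjusted p under 0.05. FOS then had a log2 change of -0.18 ± 0.06 (SE; limma unadjusted p = 0.0103, adjusted p = 0.546). The count over all probe sets ran from 32 without vehicle replicate 2 to 63 without activin B replicate 1 when 1 array was left out, with 5 arrays in each such fit. The number of member sets with an unadjusted p under 0.05, 7 in all, was 3 among sets above the median signal, 3 at a mean of 7.5 or more and 4 without activin B replicate 3. Of the 7 sets in the main fit, the median filter left out 229117_s_at of JUND, and the filter at 7.5 left out that set and FOS. The cause of the rest of the difference was not tested. Of the 24 member sets, 23 lay above the median of all probe sets, and the filter at 7.5 also drops the representing sets of FOS, FOSB and ATF3. The sign of JUN by its brightest set turned without activin B replicate 1, vehicle replicate 1 or vehicle replicate 2, with a range of -0.0225 to 0.0998 (adjusted p over 0.9 throughout), and that of JUND without vehicle replicate 1, from -0.0362 to 0.1141. All other members kept their sign under the alternatives run. Changes of dim sets such as FOS and FOSB are limited by their signal, and the background correction could not be varied.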
